A study of Mus musculus with 4 samples.

Results

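The NF-kB system of periosteal macrophages was described through 10 genes. They are the subunit genes Rela, Relb, Rel, Nfkb1 and Nfkb2, the inhibitor genes Nfkbia, Nfkbib, Nfkbie and Nfkbiz, and Tnfaip3. The genes were taken by symbol, and the rule used no measured value. The list was chosen with earlier results of these data known. All 10 were found, of 17532 genes listed in either of the deposited tables and 14398 listed in both, and all 10 passed the filter on low values in every comparison.

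NF-kB is a family of dimeric transcription factors. In resting cells the dimers are held in the cytoplasm by IkB proteins, and signals from tumour necrosis factor, interleukin-1 or toll-like receptors lead to IkB breakdown through the IKK kinase, which frees RelA and p50. A slower branch works by trimming of p100, the product of Nfkb2, to p52, which pairs with RelB. Several genes of the inhibitors are themselves NF-kB targets, among them those of IkB-alpha and A20, so a response in macrophages induces its own inhibitors.

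RNA was sequenced from macrophages of the periosteum, the sheath of connective tissue around bone, of wild type male C57BL/6 mice (written C57BL/B6 in another label) at postnatal day 28. Cells positive for CD45 and for CX3CR1, the fractalkine receptor, were sorted for CD74, the invariant chain of MHC class II, or for ACE, angiotensin-converting enzyme. The groups were CX3CR1+CD74+ with periostin, CX3CR1+CD74+ with vehicle, CX3CR1+ACE+ with periostin and CX3CR1+ACE+ with vehicle, with 1 library each, 4 in all. Periostin, a secreted matrix protein that binds integrins, was given as recombinant mouse protein (rmPostn) at 500 ng/ml for 24 h, and the vehicle was PBS. All 4 groups were cultured in DMEM with serum and 10 ng/ml M-CSF, a growth factor that keeps macrophages alive. The number of mice pooled for a library is not stated in the labels.

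The unit of level is the scaled count per 1000000 (CPM), made from the deposited scaled counts and the mean column total. The libraries held 11846312 to 19798150 reads, and 1 read was worth 0.0491 to 0.0897 CPM, the most in the CD74+ periostin library. With 1 library per group there is no replicate spread, so no test was made within a subset, and the exact 95% intervals given with ratios cover counting error only. Macrophage markers were present in all 4 libraries, with none of 14 at 0 and a summed level of 7290 and 7534 CPM in CD74+ cells with periostin and vehicle, against 8690 and 8246 CPM in ACE+ cells with periostin and vehicle. Cd74 was higher in the libraries labelled CD74+, at 1222 and 850.4 CPM with periostin and vehicle, against 552 and 531 CPM in ACE+ cells. Ace went against its label with periostin but not with vehicle. It had 9.51 and 0.897 CPM in CD74+ cells with periostin and vehicle, against 2.80 and 2.76 CPM in ACE+ cells. The highest level was thus in the library labelled CD74+ periostin, and these levels rest on only 15 to 106 reads. Neutrophil markers summed to 21229 and 13294 CPM in CD74+ cells with periostin and vehicle and to 29030 and 24153 CPM in ACE+ cells, above the macrophage list in every library. Without S100a8 and S100a9, the remaining 10 genes of the list summed to 4314 and 3001 CPM in CD74+ cells with periostin and vehicle and to 6029 and 5584 CPM in ACE+ cells, below the macrophage list in every library. Most of the macrophage sum was Lyz2, at 4390 and 4386 CPM in CD74+ cells with periostin and vehicle and 6004 and 5718 CPM in ACE+ cells. The sums of both lists thus rest on few genes and do not rank the cell types. Dendritic cell markers summed to 221 to 293 CPM, and T and NK lymphocyte markers to 6.10 to 24.1 CPM. Erythroid markers summed to 416 and 234 CPM in CD74+ cells with periostin and vehicle, against 1591 and 1338 CPM in ACE+ cells, and osteoblast and fibroblast markers to 311 and 351 CPM, against 859 and 1055 CPM. The comparisons of periostin with vehicle in ACE+ cells and of the subsets with vehicle do not use the CD74+ periostin library. All others do, with no second library to take its place. Subsets below are those of the labels.

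Promoters are shown because Nfkbia, Tnfaip3, Nfkb2 and Rel are members whose own promoters hold NF-kB recognition sequences, and Nfkbie is the member that differed most between the subsets. RefSeq promoters of build GRCm38.p6 were matched by symbol for 7 of the 10 genes, and Relb, Nfkb1 and Nfkbiz had no entry. In the 250 bases before each start, both strands were searched for the strict kB consensus, which is 3 G, a purine, 2 free bases, a pair of pyrimidines and a pair of C, and overlapping matches were each counted. A match was found in 5 of 7 genes, Rel, Nfkb2, Nfkbia, Nfkbie and Tnfaip3, against 8.23% of 27025 genes with a promoter, and in 7 of 10 of their windows, against 7.25% of 32851 windows. Rela and Nfkbib had no match in this window. Some members are known NF-kB targets, so the contrast with all genes is a description and not a test. A match describes the letters and is not a measured binding site. Each sequence reads 5′ to 3′ on the gene's strand, and capitals mark the match, which can be the reverse complement of the consensus. Shown are the whole 250-base windows of Nfkbia (chr12:55492648-55492897, minus strand) and Nfkbie (chr17:45555450-45555699, plus strand), and 30 bases around the match of Tnfaip3 nearest its start (chr10:19015411-19015440, minus strand), of Nfkb2 (chr19:46304688-46304717, plus strand) and of Rel (chr11:23771042-23771071, minus strand).
Nfkbia: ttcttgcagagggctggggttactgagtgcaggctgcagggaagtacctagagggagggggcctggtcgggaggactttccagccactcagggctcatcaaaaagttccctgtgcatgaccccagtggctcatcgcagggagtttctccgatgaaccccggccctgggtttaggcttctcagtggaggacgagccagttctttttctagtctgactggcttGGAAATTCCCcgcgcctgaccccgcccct
Nfkbie: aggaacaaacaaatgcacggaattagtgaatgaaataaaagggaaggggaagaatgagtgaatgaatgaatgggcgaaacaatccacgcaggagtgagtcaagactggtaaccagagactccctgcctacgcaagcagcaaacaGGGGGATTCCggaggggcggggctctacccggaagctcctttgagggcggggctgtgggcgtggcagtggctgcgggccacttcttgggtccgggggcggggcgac
Tnfaip3: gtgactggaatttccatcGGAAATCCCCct
Nfkb2: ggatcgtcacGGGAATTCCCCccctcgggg
Rel: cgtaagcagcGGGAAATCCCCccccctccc
The Nfkbia match lies 29 to 20 bases before the start and that of Tnfaip3 12 to 3 bases before it. The Nfkb2 run in capitals joins overlapping matches that begin 39 and 38 bases before its first start, and the Rel run joins matches that begin 92 and 91 bases before the start. The Nfkbie match lies 106 to 97 bases before the start. All these starts are those of RefSeq. By the GENCODE gene coordinates printed below, the windows of Nfkb2 and Nfkbib and the shown stretch of Tnfaip3 lie inside the gene. The Rela window does so in part.

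Among the subunits, Rela, which encodes the main activating subunit RelA, was the most abundant per length in every library. Rela (ENSMUSG00000024927, GRCm38 chr19:5637483-5648130, plus strand) had 182 and 156 CPM in CD74+ cells with periostin and vehicle, and 142 and 121 CPM in ACE+ cells with periostin and vehicle. Both CD74+ libraries were above both ACE+ libraries, and in each subset the periostin library was the higher. The share of all genes with such an order of libraries is not given here, for Rela or for the genes below. Per kb of the deposited gene length, Rela stood at 66.9, 57.6, 52.4 and 44.6 CPM in that order of libraries, and made up 49.8%, 43.8%, 39.8% and 40.5% of the summed level per kb of the 5 subunits. The ratio of periostin to vehicle was 1.16 (1.09 to 1.23) in CD74+ cells and 1.18 (1.11 to 1.25) in ACE+ cells, a gap within the counting intervals.

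Relb encodes the partner of p52 in the slower branch. Relb (ENSMUSG00000002983, chr7:19606217-19629438, minus strand) had 89.4 and 77.4 CPM in CD74+ cells with periostin and vehicle, and 77.1 and 55.1 CPM in ACE+ cells with periostin and vehicle. The ACE+ vehicle library stood lowest, and the ACE+ periostin library reached the level of CD74+ vehicle. Periostin over vehicle came to 1.16 (1.06 to 1.26) in CD74+ cells and 1.40 (1.29 to 1.52) in ACE+ cells. The ACE+ ratio was the highest of the 10 genes there, and 17.3% of the 14734 genes compared in ACE+ cells had a larger change in either direction.

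Rel encodes c-Rel, a subunit of lymphoid and myeloid cells. Rel (ENSMUSG00000020275, chr11:23736847-23770970, minus strand) had 24.0 and 26.2 CPM in CD74+ cells with periostin and vehicle, and 21.8 and 25.2 CPM in ACE+ cells with periostin and vehicle. It was the flattest of the 10 genes, with a highest level 1.20 times the lowest. The ratio of periostin to vehicle was 0.913 (0.781 to 1.07) in CD74+ cells and 0.866 (0.755 to 0.993) in ACE+ cells, so the CD74+ interval includes no difference.

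Nfkb1 and Nfkb2 encode the precursors p105 and p100, which are trimmed to the DNA-binding subunits p50 and p52 and also act as inhibitors while untrimmed. Nfkb1 (ENSMUSG00000028163, chr3:135584655-135691547, minus strand) had 82.8 and 97.7 CPM in CD74+ cells with periostin and vehicle, and 120.3 and 101.2 CPM in ACE+ cells with periostin and vehicle. The vehicle libraries lay close together, and the periostin libraries lay on either side of them. Periostin over vehicle came to 0.848 (0.781 to 0.919) in CD74+ cells and 1.19 (1.12 to 1.27) in ACE+ cells.

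Nfkb2 (ENSMUSG00000025225, chr19:46304320-46312385, plus strand) had 61.1 and 79.9 CPM in CD74+ cells with periostin and vehicle, and 87.2 and 69.0 CPM in ACE+ cells with periostin and vehicle. The periostin libraries again took the lowest and the highest place. The ratio was 0.764 (0.696 to 0.839) in CD74+ cells and 1.26 (1.17 to 1.36) in ACE+ cells. Of the exon length of Nfkb2, 18.1% overlaps genes on the opposite strand, Psd among them, and whether strand was used in counting is not known. Psd had 0.538 to 0.883 CPM in the 4 libraries, under 1 CPM in each.

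The 3 cytoplasmic IkB genes encode proteins that mask the nuclear import signal of the dimers. Nfkbia, for IkB-alpha, the fast and resynthesised inhibitor, was the most abundant of all 10 genes per length in every library. Nfkbia (ENSMUSG00000021025, chr12:55489410-55492647, minus strand) had 209 and 146 CPM in CD74+ cells with periostin and vehicle, and 202 and 178 CPM in ACE+ cells with periostin and vehicle. Both periostin libraries were above both vehicle libraries, and CD74+ vehicle was the lowest. The ratio of periostin to vehicle was 1.43 (1.35 to 1.51) in CD74+ cells and 1.13 (1.08 to 1.19) in ACE+ cells. The CD74+ ratio was the highest of the 10 genes there, and 36.9% of the 13865 genes compared in CD74+ cells had a larger change in either direction. Across genes in CD74+ cells the change with periostin ran with the deposited gene length (Spearman -0.32 over 13865 genes), and with the median trend over that length removed the log2 change of Nfkbia became 0.27, against 0.51 without that step.

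Nfkbib encodes IkB-beta, which is resynthesised more slowly. Nfkbib (ENSMUSG00000030595, chr7:28758251-28767512, minus strand) had 74.7 and 67.4 CPM in CD74+ cells with periostin and vehicle, and 52.5 and 41.1 CPM in ACE+ cells with periostin and vehicle. Both CD74+ libraries were above both ACE+ libraries. Set over vehicle, periostin gave a ratio of 1.11 (1.01 to 1.21) in CD74+ cells and 1.28 (1.16 to 1.41) in ACE+ cells. Of its exon length, 16.4% overlaps Sirt2 and Ccer2 on the opposite strand, and Sirt2 had 126 to 143 CPM in the 4 libraries.

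Nfkbie encodes IkB-epsilon, an inhibitor that acts late in a response and is prominent in B lymphocytes. Nfkbie (ENSMUSG00000023947, chr17:45555703-45563169, plus strand) had 14.4 and 17.6 CPM in CD74+ cells with periostin and vehicle, and 34.4 and 34.8 CPM in ACE+ cells with periostin and vehicle. Both CD74+ libraries were below both ACE+ libraries, an order whose share over all genes is not given here. Its highest level was 2.41 times its lowest, the widest span of the 10 genes. Its share of the summed level per kb of the 3 cytoplasmic IkB genes was 3.45% and 5.55% in CD74+ cells with periostin and vehicle, and 8.52% and 9.82% in ACE+ cells. Periostin over vehicle came to 0.819 (0.672 to 0.996) in CD74+ cells and 0.988 (0.882 to 1.11) in ACE+ cells.

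Nfkbiz encodes IkB-zeta, a nuclear IkB protein that works with p50 on a set of secondary response genes. Nfkbiz (ENSMUSG00000035356, chr16:55811375-55838899, minus strand) had 81.4 and 78.98 CPM in CD74+ cells with periostin and vehicle, and 60.0 and 52.1 CPM in ACE+ cells with periostin and vehicle. Both CD74+ libraries were above both ACE+ libraries. The ratio of periostin to vehicle was 1.03 (0.946 to 1.12) in CD74+ cells and 1.15 (1.05 to 1.26) in ACE+ cells.

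Tnfaip3 encodes A20, which edits ubiquitin chains on signalling proteins upstream of IKK. Tnfaip3 (ENSMUSG00000019850, chr10:19000910-19015657, minus strand) had 34.6 and 60.4 CPM in CD74+ cells with periostin and vehicle, and 49.1 and 53.4 CPM in ACE+ cells with periostin and vehicle. CD74+ periostin stood apart below the other libraries. Set over vehicle, periostin gave a ratio of 0.573 (0.509 to 0.645) in CD74+ cells, a level 1.74 (1.55 to 1.97) times lower, and 0.920 (0.839 to 1.01) in ACE+ cells. In CD74+ cells 19.4% of genes had a larger change in either direction, and with the trend over gene length removed the log2 change was -0.59, against -0.79 without that step. Nfkbia and Tnfaip3, whose products both restrain NF-kB and whose promoters are shown above, thus lay on opposite sides of vehicle in CD74+ cells. They did so in ACE+ cells too, at ratios of 1.13 and 0.920, where the Tnfaip3 interval includes no difference.

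**Figure D1:**
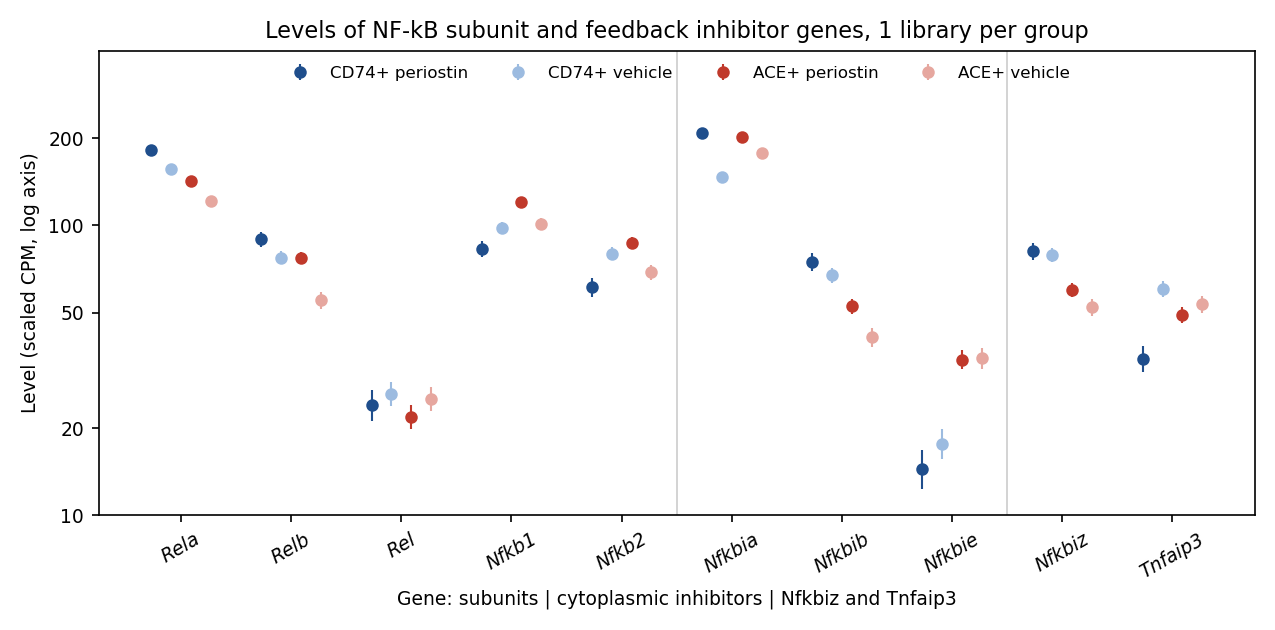
Level of each of the 10 genes (scaled CPM, log axis) in the CD74+ periostin, CD74+ vehicle, ACE+ periostin and ACE+ vehicle libraries, 1 library per group; bars are exact 95% counting intervals. Nfkbie lies at 14.4 and 17.6 CPM in CD74+ cells and 34.4 and 34.8 CPM in ACE+ cells, and Tnfaip3 is lowest with periostin in CD74+ cells, at 34.6 CPM.

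Between genes, the order per kb was stable at the top: Nfkbia ranked 1 and Rela ranked 2 in all 4 libraries. Nfkbia had 132 and 92.8 CPM per kb in CD74+ cells with periostin and vehicle, and 128 and 113 CPM per kb in ACE+ cells. By level per kb it stood above 95.4% to 96.8% of the genes with at least 1 CPM in a library. Tnfaip3 was the lowest in 3 of the 4 libraries, at 4.79, 6.80 and 7.39 CPM per kb in CD74+ periostin, ACE+ periostin and ACE+ vehicle cells, and Nfkbie was the lowest in CD74+ vehicle cells, at 7.28 CPM per kb. Rel, at 7.80 to 9.38 CPM per kb, was a near neighbour of both. With 1 library per group, no neighbours in this order can be set against a spread between replicates.

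The comparison of periostin with vehicle asks how each subset responds to the matrix protein. No member reached a 2-fold change in either subset, taken as log2 of the levels after adding 1 CPM. In CD74+ cells 0 of 10 members were at least 2-fold higher and 0 at least 2-fold lower, against 6.69% and 5.25% of 13865 genes. In ACE+ cells these counts were also 0 and 0, against 1.47% and 1.30% of 14734 genes. At 1.5-fold, no member was higher and Tnfaip3 was the 1 member lower in CD74+ cells, against 16.6% of genes higher and 14.1% lower. In ACE+ cells no member passed 1.5-fold, against 6.16% of genes higher and 5.82% lower. These counts lie at or under what the shares over all genes would give for 10 genes.

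In direction, 5 members lay above and 5 below vehicle in CD74+ cells, with a median log2 change of -0.04, against 0.02 for all genes. In ACE+ cells 7 lay above and 3 below, with a median of 0.22, against 0.00 for all genes. The members with a level of periostin above vehicle in ACE+ cells were Rela, Relb, Nfkb1, Nfkb2, Nfkbia, Nfkbib and Nfkbiz, with ratios of 1.13 to 1.40. Their intervals all lay above 1 but cover counting error only, and the share of all genes with such an interval is not given here. Removing the trend over GC content brought the log2 change in CD74+ cells to 0.06 for Rela, 0.09 for Relb and -0.0018 for Nfkbib, against 0.21, 0.21 and 0.15 without that step. In ACE+ cells the same step brought the median of the members to 0.16, against 0.22. There it lowered Rela from 0.23 to 0.13, Relb from 0.48 to 0.39 and Nfkbib from 0.35 to 0.24, and raised Nfkb1 from 0.25 to 0.31. Other cell type markers moved with periostin too. The neutrophil list gave 21229 CPM with periostin and 13294 CPM with vehicle in CD74+ cells, and 29030 and 24153 CPM in ACE+ cells, with none of 12 genes at 0. S100a8 and S100a9 made up most of these sums, and 9 of the 12 genes were higher with periostin and 3 lower in CD74+ cells, against 12 and 0 in ACE+ cells. The chondrocyte list of 12 genes gave 969 and 1278 CPM with periostin and vehicle in CD74+ cells, and 798 and 239 CPM in ACE+ cells, with 1 gene at 0, in CD74+ periostin cells. The part of these cells in the members' values was not tested, and in a bulk library fewer cells of a type and less RNA per cell cannot be told apart.

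**Figure D2:**
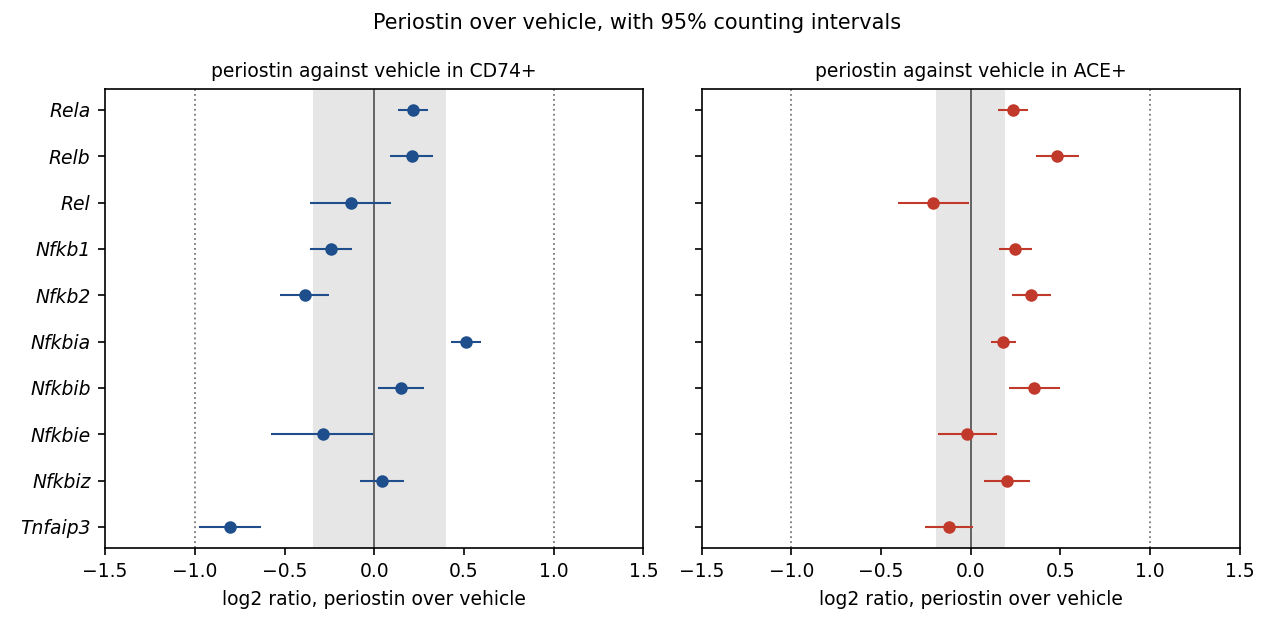
Log2 ratio of periostin to vehicle for the 10 genes in CD74+ (left) and ACE+ cells (right), with exact 95% counting intervals; the grey band holds the middle 50% of all genes' changes and dotted lines mark 2-fold. Tnfaip3 in CD74+ cells, at a ratio of 0.573, and Relb in ACE+ cells, at 1.40, each lie farthest from 0 within their own panel, and no gene reaches a dotted line.

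A periostin effect common to both subsets was tested on the recovered whole reads with edgeR's quasi-likelihood test, with the subset as a term, which leaves 1 residual degree of freedom. It called 8 genes higher, 0.0609% of 13129, and 6 lower, 0.0457%, at an adjusted p under 0.05, and 876 at an unadjusted p under 0.05. No member was called, by edgeR or by DESeq2, which called 2 genes in all. The lowest adjusted p values of members by edgeR were 0.757 for Nfkbia (log2 0.36, SE 0.19), 0.764 for Tnfaip3 (-0.44, SE 0.24) and 0.811 for Relb (0.36, SE 0.21), and the highest adjusted p over the alternatives was 0.9999 for each. Unadjusted, the lowest p were 0.0524 for Nfkbia and 0.0605 for Tnfaip3. Nfkbia and Relb lay above vehicle and Tnfaip3 below it in both subsets. The 1 residual degree of freedom is the difference of the periostin response between the subsets, so any such difference enters the error. With 1 library per group, no spread between replicates lies behind these p-values. Nothing in the labels says that the libraries came from separate cultures or animals, so differences between libraries may be technical.

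The response itself was set side by side between the subsets, as the log2 change in CD74+ cells minus that in ACE+ cells. Nfkb2 had -0.38 and 0.33 in CD74+ and ACE+ cells, a difference of -0.72 with a counting interval of -0.90 to -0.55 for the ratios without added CPM. Tnfaip3 had -0.79 and -0.12, a difference of -0.67 (-0.90 to -0.47), and Nfkb1 had -0.24 and 0.25, a difference of -0.48 (-0.64 to -0.34). Nfkbia had 0.51 and 0.18, a difference of 0.33 (0.22 to 0.44), the largest in the other direction.

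The precursor genes Nfkb1 and Nfkb2 were thus on opposite sides of vehicle in the subsets, as were 46.4% of all 13129 genes. For all 10 genes the median difference was -0.23, against 0.00 for all genes, and 8 of 10 were negative, against 49.9% of genes. The differences of the other members ran from -0.27 for Relb to 0.07 for Rel. A larger difference in either direction was seen for 23.6% of genes in the case of Nfkb2, 26.2% for Tnfaip3 and 39.6% for Nfkb1. With 1 library in each of 4 groups the difference was not tested.

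**Figure D3:**
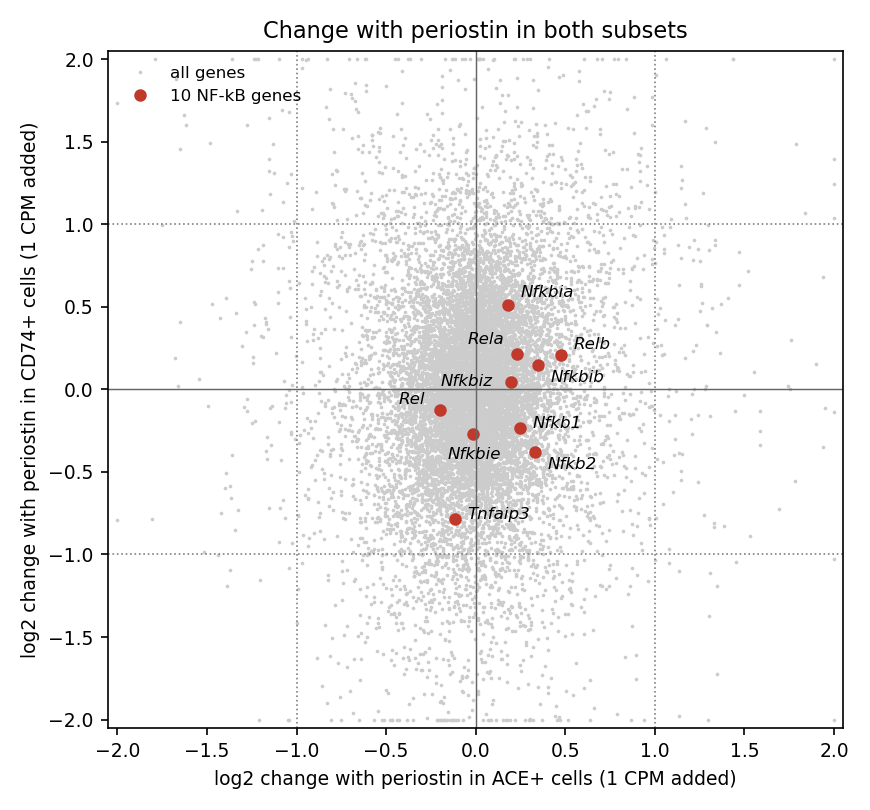
Log2 change with periostin (1 CPM added) in ACE+ cells (x axis) and CD74+ cells (y axis) for 13129 genes (grey, values past the axis limits drawn at the edge) and the 10 NF-kB genes (red); dotted lines mark 2-fold. All 10 lie inside the dotted lines, Tnfaip3 lowest at -0.79 in CD74+ cells and Relb farthest right at 0.48 in ACE+ cells.

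The CD74+ and ACE+ subsets were compared within each treatment, which asks how the cells differ at rest and with periostin. Nfkbie was lower in CD74+ cells under both treatments. With periostin it stood at a ratio of 0.420 (0.352 to 0.499) to ACE+ cells, a level 2.38 (2.004 to 2.84) times lower, and with vehicle at 0.507 (0.438 to 0.585), a level 1.97 (1.71 to 2.28) times lower. With periostin 12.0% of 13681 genes, and with vehicle 12.8% of 13393 genes, had a larger difference in either direction. The IkB-beta and IkB-zeta genes lay on the other side. Nfkbib stood at 1.42 (1.30 to 1.56) with periostin and 1.64 (1.49 to 1.81) with vehicle. Nfkbiz stood at 1.36 (1.24 to 1.48) with periostin and 1.52 (1.39 to 1.65) with vehicle. Rela stood at 1.28 (1.20 to 1.35) with periostin and 1.29 (1.22 to 1.37) with vehicle.

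Other members differed by treatment. Nfkb1, Nfkb2 and Tnfaip3 had ratios of CD74+ to ACE+ of 0.688, 0.701 and 0.705 with periostin, with intervals under 1, and of 0.966, 1.16 and 1.13 with vehicle. Nfkbia had a ratio of 1.03 (0.981 to 1.09) with periostin and 0.821 (0.777 to 0.867) with vehicle. With the trend over gene length removed, the log2 difference of Tnfaip3 with periostin was -0.29, against -0.49 without that step. These values rest on the same libraries as the responses above.

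With periostin, 0 of 10 members were at least 2-fold higher in CD74+ cells, against 6.94% of 13681 genes, and Nfkbie was at least 2-fold lower, 1 of 10 against 10.4%. At 1.5-fold with periostin, no member was higher, against 18.5% of genes, and Nfkbie was again the 1 member lower, against 20.8%. With vehicle, 0 of 10 were at least 2-fold higher and 0 at least 2-fold lower, against 3.64% and 7.73% of 13393 genes. At 1.5-fold with vehicle, Nfkbib and Nfkbiz were higher, 2 of 10 against 11.9% of genes, and Nfkbie was lower, 1 of 10 against 17.0%. The counts of members are near these shares.

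In edgeR's common fit of the subset effect, with treatment as a term, 818 of 13129 genes were called higher in CD74+ cells, 6.23%, and 1201 lower, 9.15%. Of the members, 1 was called higher and 1 lower. As in the periostin fit, the error held the difference of responses between the subsets and no spread between replicates. Nfkbie fell in CD74+ cells relative to ACE+ cells, with a log2 difference of -1.11 (SE 0.29) and an adjusted p of 0.00188, and its adjusted p was 0.00188 to 0.0139 over the alternatives. Nfkbib was higher in CD74+ cells by 0.61 (SE 0.23, adjusted p 0.0436 by edgeR), and that call was lost with DESeq2, at an adjusted p of 0.0867, and with no filter on low values, at 0.0554. Nfkbiz (0.52, SE 0.22, adjusted p 0.0849) and Rela (0.36, SE 0.19, adjusted p 0.195) did not pass. For both genes the CD74+ libraries lay above the ACE+ libraries, and the share of all genes with such an order is not given here.

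Markers of several other cells were also lower in CD74+ cells. The list of 9 B lymphocyte markers summed to 21.1 and 28.5 CPM in CD74+ cells with periostin and vehicle, with 3 and 1 genes at 0, against 528 and 618 CPM in ACE+ cells, with 0 at 0. Pax5, a transcription factor that defines B lymphocytes, had 0 reads in both CD74+ libraries, against 14.5 and 11.2 CPM in ACE+ cells. The neutrophil, erythroid, and osteoblast and fibroblast sums given above were also lower in CD74+ than in ACE+ cells under each treatment. The chondrocyte sums were higher. The part of these cells in the level of Nfkbie was not tested.

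**Figure D4:**
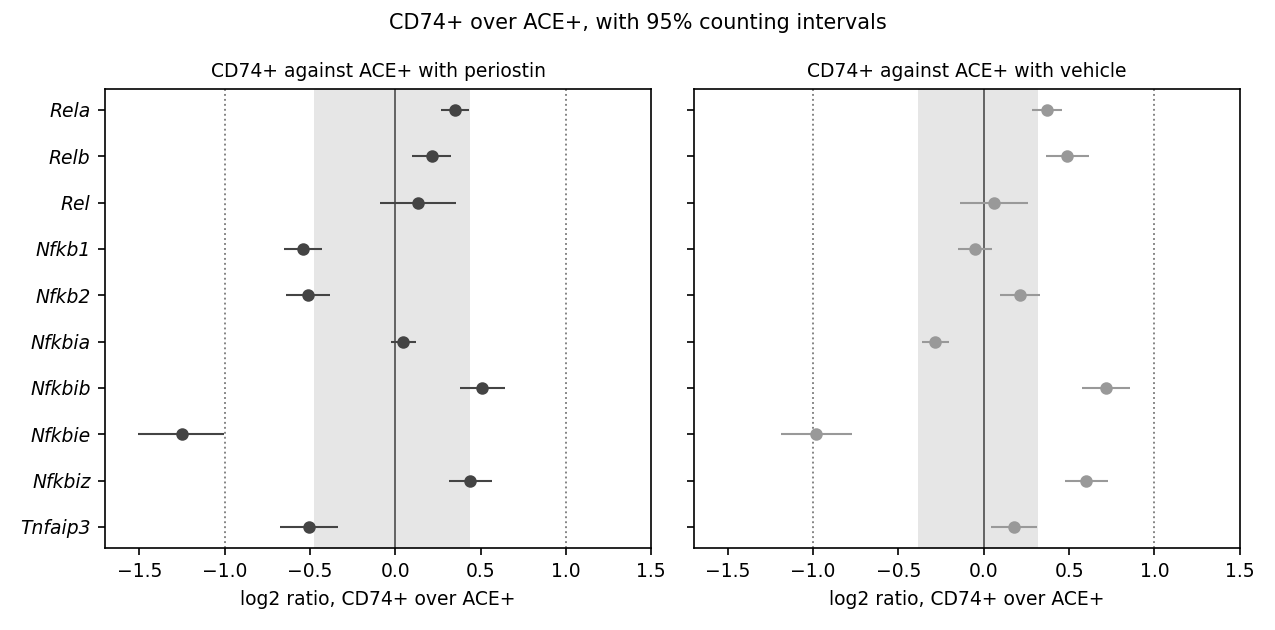
Log2 ratio of CD74+ to ACE+ cells for the 10 genes with periostin (left) and vehicle (right), with exact 95% counting intervals; the grey band holds the middle 50% of all genes and dotted lines mark 2-fold. Nfkbie lies at ratios of 0.420 and 0.507, while Nfkbib, Nfkbiz, Rela and Relb lie right of 0 in both panels.

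Genes with a pattern over the 4 libraries most like that of a member were sought among 10975 other protein-coding genes, by the root mean square difference of centred log2(CPM + 1). For Nfkbie the closest were Cxcr2, a chemokine receptor of neutrophils that is on the neutrophil list (0.0348), Lztfl1 (0.0357) and Zkscan3 (0.0367). Cxcr2 had 94.5 and 108 CPM in CD74+ cells with periostin and vehicle, and 208 and 208 CPM in ACE+ cells with periostin and vehicle. For Nfkbib the closest were 9130401M01Rik (0.0247), Rnf185 (0.0329) and Rce1 (0.0362). Among the 45 pairs of members, Nfkbib and Nfkbiz were closest (0.0779) and Nfkbib and Nfkbie farthest apart (0.858). With 4 libraries, many genes share a pattern closely.

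The rest of the pathway was read from 4 lists with 105 genes. Of 19 signalling receptors, 0 were at least 2-fold higher and 2 at least 2-fold lower with periostin in CD74+ cells, against 6.69% and 5.25% of all genes, and 0 and 0 in ACE+ cells, against 1.47% and 1.30%. The pair lower in CD74+ cells were toll-like receptors. Tlr9, a sensor of unmethylated DNA, had 9.69 CPM with periostin and 25.7 CPM with vehicle (ratio 0.377, 0.302 to 0.466). Tlr6, which pairs with TLR2 to sense lipopeptides, had 7.63 CPM with periostin and 20.5 CPM with vehicle (ratio 0.372, 0.290 to 0.473). In ACE+ cells the receptor with the largest change was Tlr1, another partner of TLR2, at 41.8 CPM with periostin and 26.8 CPM with vehicle (ratio 1.56, 1.38 to 1.75). The median log2 change of the receptors was -0.09 in CD74+ cells and 0.18 in ACE+ cells.

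None of 31 adaptors and kinases, which carry the signal from receptors to IKK, reached 2-fold in either subset after adding 1 CPM. The gene with the largest change in CD74+ cells was Tab1, for a partner of the kinase TAK1, at 12.9 CPM with periostin and 26.7 CPM with vehicle (ratio 0.483, 0.398 to 0.584); without the added CPM it would lie past 2-fold, and with it the log2 change was -0.99. In ACE+ cells it was Card9, an adaptor of fungal sensing, at 116 CPM with periostin and 83.4 CPM with vehicle (ratio 1.39, 1.30 to 1.49). The list's median log2 change was -0.15 in CD74+ cells, where 23 of 31 lay below vehicle, and 0.06 in ACE+ cells, against 0.02 and 0.00 for all genes, of which 51.4% lay above vehicle in CD74+ cells. Map3k14, the kinase NIK of the slower branch, Ikbkb and Chuk, the catalytic IKK genes, were on the list and did not pass.

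Of 20 other inhibitors, 2 were at least 2-fold higher with periostin in CD74+ cells and 0 lower, against 6.69% and 5.25% of all genes, and 0 and 0 in ACE+ cells. Zc3h12a, for the RNase Regnase-1 that degrades messages of inflammatory genes, had 71.7 CPM with periostin and 32.3 CPM with vehicle in CD74+ cells (ratio 2.22, 1.99 to 2.48). Nfkbil1, an IkB-like gene, had 35.9 CPM with periostin and 16.4 CPM with vehicle (ratio 2.18, 1.87 to 2.55), and 16.4% of its exon length overlaps Atp6v1g2 and Gm16181 on the other strand. In CD74+ cells 13 of the 20 lay above vehicle and 7 below, against 51.4% of all genes above. In ACE+ cells the largest change was that of Tnip3, a binding partner of A20, at 10.2 CPM with periostin and 6.65 CPM with vehicle (ratio 1.53, 1.21 to 1.96). The list's median was 0.11 in CD74+ cells and 0.07 in ACE+ cells.

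Of 35 target genes, 34 were in the tables, and 32 could be compared in CD74+ and 33 in ACE+ cells. Left out in CD74+ cells were Il6 and Nos2, which the table does not list because they had 0 reads with periostin, which allows up to 0.269 CPM. Il6, for interleukin-6, had 51 reads with vehicle there (3.05 CPM), and Nos2, for inducible nitric oxide synthase, 18 reads (1.08 CPM). With periostin, 1 of those compared in CD74+ cells was higher by 2-fold or more and 2 were lower by as much, against 6.69% and 5.25% of all genes, and 0 and 2 in ACE+ cells, against 1.47% and 1.30%. Cd80, a costimulatory ligand for T lymphocytes, had 1.44 CPM with periostin and 16.6 CPM with vehicle in CD74+ cells, a level 11.5 (6.98 to 20.5) times lower. In ACE+ cells Saa3, an acute phase protein, had 3.34 CPM with periostin and 12.9 CPM with vehicle, a level 3.85 (2.92 to 5.15) times lower. Il1a, for interleukin-1 alpha, had 10.3 CPM with periostin and 22.2 CPM with vehicle in ACE+ cells, a level 2.17 (1.82 to 2.58) times lower, and 11.2% of its exon length overlaps Gm14023. The other compared genes past 2-fold in CD74+ cells are named after their values were seen, since they lie under 5 CPM: Il12b with 3.59 CPM with periostin and 0.598 CPM with vehicle, and Il1a with 1.61 CPM with periostin and 4.54 CPM with vehicle. The list's median log2 change was 0.23 in CD74+ cells and 0.10 in ACE+ cells.

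**Figure D5:**
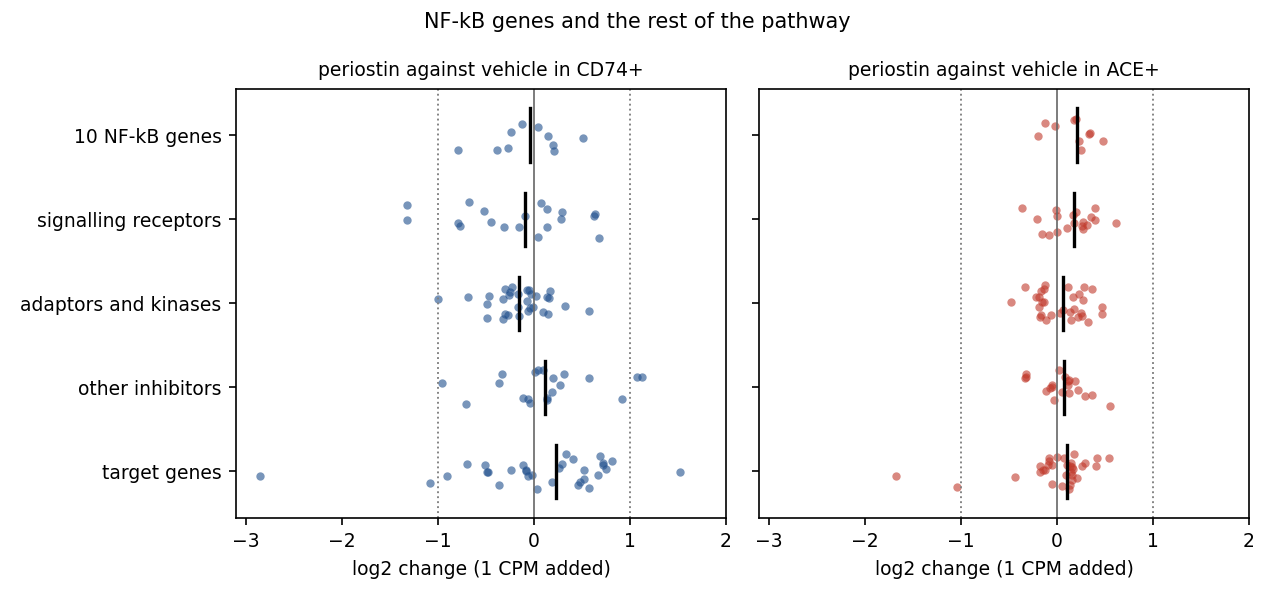
Log2 change with periostin (1 CPM added) in CD74+ (left) and ACE+ cells (right) for each of the 10 NF-kB genes and the genes of 4 pathway lists; points are genes, shifted up or down at random, black bars are medians and dotted lines mark 2-fold. The medians of the 10 genes are -0.04 in CD74+ cells and 0.22 in ACE+ cells, and Cd80 is the point farthest left, in CD74+ cells.

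In the common fit by edgeR no gene of the 4 lists was called for periostin. For the subset effect, 3 receptors were called higher and 2 lower in CD74+ cells, 1 adaptor or kinase higher and 3 lower, 2 other inhibitors higher and 3 lower, and 10 targets higher and 3 lower. Over all genes 6.23% were called higher and 9.15% lower. The targets called were Bcl2a1b, Bcl2a1d, Ccl3, Ccl4, Csf1, Cxcl2, Il1a, Il1b, Il1rn, Marcksl1, Mmp9, Saa3 and Tnf. A strict kB match in the promoter window was found in 39.3% of target genes, 25% of other inhibitors, 20% of receptors and 16.7% of adaptors and kinases that have a window.

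The authors' deposited table gave log2 changes without added counts, of -0.80 for Tnfaip3 and 0.51 for Nfkbia in CD74+ cells and 0.48 for Relb in ACE+ cells. In the authors' deposited table of annotation terms for CD74+ cells, with 548 terms and 2353 genes, Nfkbia was the 1 member named, in 13 terms. The authors' deposited table of terms for ACE+ cells, with 637 terms and 1443 genes, named 0 members.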

How the data were processed

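RNA was sequenced in 4 libraries, 1 per group, and groups were taken from the sample labels. Per the submitters' processing notes HISAT2 and GRCm38 were used; for counter, strand and annotation the sources used here give nothing. The authors deposited 1 table per subset with a signal per gene and library, which is a read count divided by 1 size factor per library; 100% of values were whole reads within 0.001 read after division by the step, and these recovered reads were used for count tests. In all 14398 genes that both tables list, the deposited mean was that over 4 libraries, so levels were set across tables. The authors' deposited log2 changes were used only where named. The columns of per-sample values left unused numbered 0.

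CPM is the deposited signal per 1000000 of the mean column total, 15573211. The plan had assumed counts or normalized values, and this unit was the nearest to it. Changes were log2 after adding 1 CPM over genes that the tables compared list (so with a read in both libraries of a table) and whose higher library had at least 1 CPM, called at 2-fold, without a p-value. Ratios carry exact 95% conditional binomial intervals. Where 1 table leaves out a gene, its reads there were solved from the deposited mean, except for 165 genes. Common effects were tested with edgeR 4.0.16 (limma 3.58.1, R 4.3.3, TMM, quasi-likelihood, Benjamini-Hochberg over 13129 genes, threshold 0.05), with SE as the log2 difference over the square root of F, and DESeq2 1.42.0 as an alternative; the fit was checked on simulated data. Coordinates, exon overlaps and GC content came from GENCODE M21, gene length from the authors' deposited tables and promoters from RefSeq GRCm38.p6. Python 3.11.15 with pandas 2.3.3, numpy 2.4.6, scipy 1.17.1 and matplotlib 3.10.9 made the rest.

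The 10 genes, the 4 pathway lists and the 9 marker lists were chosen with earlier results of these data known. From each pathway list the text names, per periostin comparison and direction, up to 3 genes with the largest change among those past 2-fold with 5 CPM or more in the higher library, or else the 1 with the largest change. Likeness was sought for the 2 members with the widest range. Alternatives were other pseudocounts, filters, scalings and folds, and the removal of trends over length and GC content; the 10 CPM background and the alternatives for the difference of responses were added after seeing the data.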

Additional observations from a re-analysis of the deposited data

Results flagged for a closer look

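Nfkb1, for p105 and p50, lay on opposite sides of vehicle in the subsets, with 82.8 CPM with periostin and 97.7 CPM with vehicle in CD74+ cells and 120.3 CPM with periostin and 101.2 CPM with vehicle in ACE+ cells. The log2 change in CD74+ cells minus that in ACE+ cells was -0.48. Nfkb2, for p100 and p52, did so as well, with 61.1 CPM with periostin and 79.9 CPM with vehicle in CD74+ cells and 87.2 CPM with periostin and 69.0 CPM with vehicle in ACE+ cells, a difference of -0.72. Neither difference was tested, since each subset and treatment has 1 library, and 46.4% of genes had opposite signs in the subsets.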

How the results depend on the processing

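With periostin, no member passed 2-fold in either subset under any pseudocount, scaling or trend removal tried. The filters tried could not change this, since all members passed them. At a threshold of 1.5-fold the count became 1 lower with periostin in CD74+ cells (Tnfaip3), and 2 higher (Nfkbib, Nfkbiz) and 1 lower (Nfkbie) in CD74+ against ACE+ cells with vehicle. Among genes with at least 10 CPM, the shares past 1.5-fold were 9.75% higher and 12.2% lower with periostin in CD74+ cells and 1.79% and 1.97% in ACE+ cells. They were 15.6% and 19.5% for CD74+ against ACE+ cells with periostin and 10.3% and 13.9% with vehicle. The common subset effect called 1 member, Nfkbie, with DESeq2 and 1 with no filter on low values, in place of 2, and the cause was not tested.

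Each move was set against the distance from the centre of its counting interval to an end. Of 280 single-member changes under the alternatives, 269 moved by less than this distance and 11 moved by more. The other filters cannot alter a member's own change, so their part of the 269 was fixed in advance. All 11 came under removal of a trend over length or GC content. Of these 280, 4 crossed 0: Nfkbib in CD74+ cells without the length trend (-0.01) and without the GC trend (-0.0018), Nfkbiz in CD74+ cells without the GC trend (-0.0033), and Nfkbia in CD74+ against ACE+ cells with periostin without the length trend (-0.08). Without the GC trend the log2 change of Rela with periostin was 0.06 in CD74+ and 0.13 in ACE+ cells. The median difference of responses lay between -0.30 and -0.19 under all 7 alternatives, where the filters again could not change it. No paired analysis was possible because each group has 1 library, and leaving out a library leaves no residual degree of freedom. Depth limits Nfkbie most, with 161 reads in the CD74+ periostin library.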
